A study of Mus musculus with 2 samples.

Results

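The interferon response genes described here are 31 named mouse genes, chosen by symbol from a list, of 33696 genes measured in single cells of mouse liver. All 31 were found in both libraries, and together they held 387924 UMIs in the SLC22A18-/- library and 352612 UMIs in the SLC22A18+/+ library. A UMI is a molecular tag that counts 1 captured RNA molecule. The SLC22A18-/- library came from liver labelled as lacking the transporter gene Slc22a18, and the SLC22A18+/+ library from liver labelled wild type. KO and WT stand for the libraries so labelled. There was 1 library per genotype, so genotype cannot be told apart from the animal, its background or the preparation, and no test was possible. The sources used here do not state the strain, the age or sex of the mice, how many were used, or which exons the allele lacks.

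Interferons are secreted proteins that warn cells of viruses and other microbes. Type I interferons and interferon-gamma bind receptors that activate Janus kinases, which phosphorylate STAT proteins. STAT2 and IRF9 act in a complex that binds the interferon-stimulated response element (ISRE), while the gamma-activated site (GAS) is a DNA element of the response to interferon-gamma. The genes switched on in this way block viral replication, tag proteins, load antigen and also limit the response itself. In liver, Kupffer cells and the endothelium that lines the sinusoids are in direct contact with blood from the gut.

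After filtering, 11154 cells remained in the SLC22A18-/- library and 12002 in the SLC22A18+/+ library, with medians of 5866 (KO) and 5344.5 (WT) UMIs per cell. Of 33 clusters, 24 were named by marker genes into 13 cell classes, while 19.4% of SLC22A18-/- and 20.2% of SLC22A18+/+ cells lay in clusters left unnamed. Libraries were compared within the 9 classes that had 100 or more cells in both. The libraries shared 38 cell barcodes before filtering and 34 among the kept cells. Slc22a18 itself had 2065 UMIs in the SLC22A18-/- library and 2353 UMIs in the SLC22A18+/+ library, a ratio of 0.875 with a counting interval of 0.824 to 0.928. Most of these UMIs were in hepatocytes, with 1517 (KO) and 1593 (WT), a ratio of 0.918 (0.855 to 0.985). Kupffer cells held 75 (KO) and 140 (WT) UMIs, 0.474 (0.353 to 0.632), and endothelial cells 28 (KO) and 76 (WT) UMIs, 0.407 (0.254 to 0.635). The gene was therefore detected in both, and since a 3′ tag outside a deleted segment is still counted, it does not check the label.

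The promoters of 21 of the 31 genes were found in the RefSeq promoter table of build GRCm38.p6, in windows of 300 bases that lie mostly upstream of each start. The ISRE core, GAAA followed by any 2 bases and a second GAAA, was searched on both strands with overlaps allowed, and it was present for 13 of these 21 genes (61.9%), against 3.99% of all 27025 genes in the table. The GAS core TTCNNNGAA (N is any base), which reads the same on both strands, was present for 5 of 21 genes (23.8%), against 9.55% of all genes. Both cores were found for Bst2, Oas1a and Igtp. Only the GAS core was found for Irf1 and Ifit2, and neither for Irf7, Irf9, Oasl2, Ifi44, Ifi47 and Xaf1. A match is a description of letters in this window. The genes with no entry in the table were Oas2, Mx1, Mx2, Usp18, Ifi27l2a, Ifi204, Zbp1, Iigp1, Rtp4 and Parp14.

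The following 300-base windows are printed 5′ to 3′ on the gene's own strand because their levels in endothelial cells and their detection beside Ifit1 are described later. Capitals mark the core matches, which for Isg15 and Bst2 run into each other. Isg15 lies at chr4:156200769-156201068 on the minus strand, Ifit1 at chr19:34640639-34640938, Ifit3 at chr19:34583279-34583578 and Ifit3b at chr19:34607707-34608006, the last 3 on the plus strand. Rsad2 lies at chr12:26456403-26456702 on the minus strand.
Isg15: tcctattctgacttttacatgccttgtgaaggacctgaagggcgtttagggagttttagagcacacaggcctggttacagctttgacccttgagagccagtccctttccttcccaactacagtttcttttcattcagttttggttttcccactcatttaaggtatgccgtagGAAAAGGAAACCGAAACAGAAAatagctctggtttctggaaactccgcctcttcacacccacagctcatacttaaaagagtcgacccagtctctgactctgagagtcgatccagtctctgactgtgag
Ifit1: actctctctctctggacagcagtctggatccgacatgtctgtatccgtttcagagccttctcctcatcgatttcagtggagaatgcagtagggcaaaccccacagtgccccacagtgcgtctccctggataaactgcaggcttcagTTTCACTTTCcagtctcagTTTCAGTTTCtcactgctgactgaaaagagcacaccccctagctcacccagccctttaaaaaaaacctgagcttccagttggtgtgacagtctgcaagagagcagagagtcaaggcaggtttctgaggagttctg
Ifit3: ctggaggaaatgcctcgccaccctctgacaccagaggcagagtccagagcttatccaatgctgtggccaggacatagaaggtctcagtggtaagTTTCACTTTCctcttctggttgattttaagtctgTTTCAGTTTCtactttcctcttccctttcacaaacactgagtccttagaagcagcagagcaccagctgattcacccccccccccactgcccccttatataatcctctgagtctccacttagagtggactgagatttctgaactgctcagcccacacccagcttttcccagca
Ifit3b: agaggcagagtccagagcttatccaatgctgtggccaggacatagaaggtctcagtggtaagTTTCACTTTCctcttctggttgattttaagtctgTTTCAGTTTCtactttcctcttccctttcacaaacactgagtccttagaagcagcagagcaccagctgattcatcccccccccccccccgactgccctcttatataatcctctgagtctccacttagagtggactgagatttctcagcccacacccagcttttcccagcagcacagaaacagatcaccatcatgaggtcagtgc
Rsad2: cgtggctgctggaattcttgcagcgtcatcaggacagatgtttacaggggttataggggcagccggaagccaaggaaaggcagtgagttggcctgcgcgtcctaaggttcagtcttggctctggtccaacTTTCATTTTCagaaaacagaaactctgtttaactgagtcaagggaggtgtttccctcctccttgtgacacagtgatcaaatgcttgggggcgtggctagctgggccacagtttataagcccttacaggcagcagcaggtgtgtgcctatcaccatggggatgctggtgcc
The ISRE match nearest to the start began 66 bases upstream in Isg15, 85 in Ifit1, 122 in Ifit3, 154 in Ifit3b and 120 in Rsad2. Isg15 held 3 overlapping matches, Ifit1, Ifit3 and Ifit3b held 2 each, and Rsad2 held 1. The windows of Ifit3 and Ifit3b shared an identical run of 169 bases that includes both matches. Whether reads of these neighbouring genes can be told apart was not tested.

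For contrast, the window of Irf1 at chr11:53769764-53770063 on the plus strand, 1 of 2 windows listed for the gene, held a GAS match 90 bases upstream and no ISRE core. That of Bst2 at chr8:71537423-71537722 on the minus strand held 2 ISRE matches and a GAS match in 1 continuous stretch.
Irf1: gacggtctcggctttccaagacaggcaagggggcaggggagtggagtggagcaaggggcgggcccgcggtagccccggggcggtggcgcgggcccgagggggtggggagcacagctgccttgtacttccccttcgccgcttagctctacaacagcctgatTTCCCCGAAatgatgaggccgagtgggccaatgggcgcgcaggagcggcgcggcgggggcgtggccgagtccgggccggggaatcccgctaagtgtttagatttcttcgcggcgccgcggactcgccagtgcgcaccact
Bst2: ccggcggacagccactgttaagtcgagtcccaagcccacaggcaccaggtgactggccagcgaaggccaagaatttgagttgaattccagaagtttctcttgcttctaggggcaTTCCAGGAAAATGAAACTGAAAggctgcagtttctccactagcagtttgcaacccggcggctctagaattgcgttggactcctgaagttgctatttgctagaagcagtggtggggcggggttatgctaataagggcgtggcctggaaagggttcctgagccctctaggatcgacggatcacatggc
Both genes were among the members with ratios closest to 1 in endothelial cells, as described later.

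Summed over the 31 genes, the level was highest in endothelial cells, next in stellate-like cells and fibroblasts and then in Kupffer cells in both libraries. Levels are given as UMIs per 1000000 UMIs of a class (CPM). Endothelial cells had 7881 CPM in the KO library and 6963 CPM in the WT library. Stellate-like cells and fibroblasts had 6938 (KO) and 5956 (WT) CPM, and Kupffer cells had 5186 (KO) and 4660 (WT) CPM. At the other end, hepatocytes had 1269 (KO) and 1156 (WT) CPM, NK/ILC1 cells 907 (KO) and 1020 (WT) CPM, and B cells 900.2 (KO) and 954 (WT) CPM. The first 3 and the last 3 ranks were the same in both libraries, and the order of these 6 also held in both when each cell was weighted equally. Between them, the order of several classes differed between the libraries (monocytes were 6th in the KO library and 5th in the WT library, for example).

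**Figure D1:**
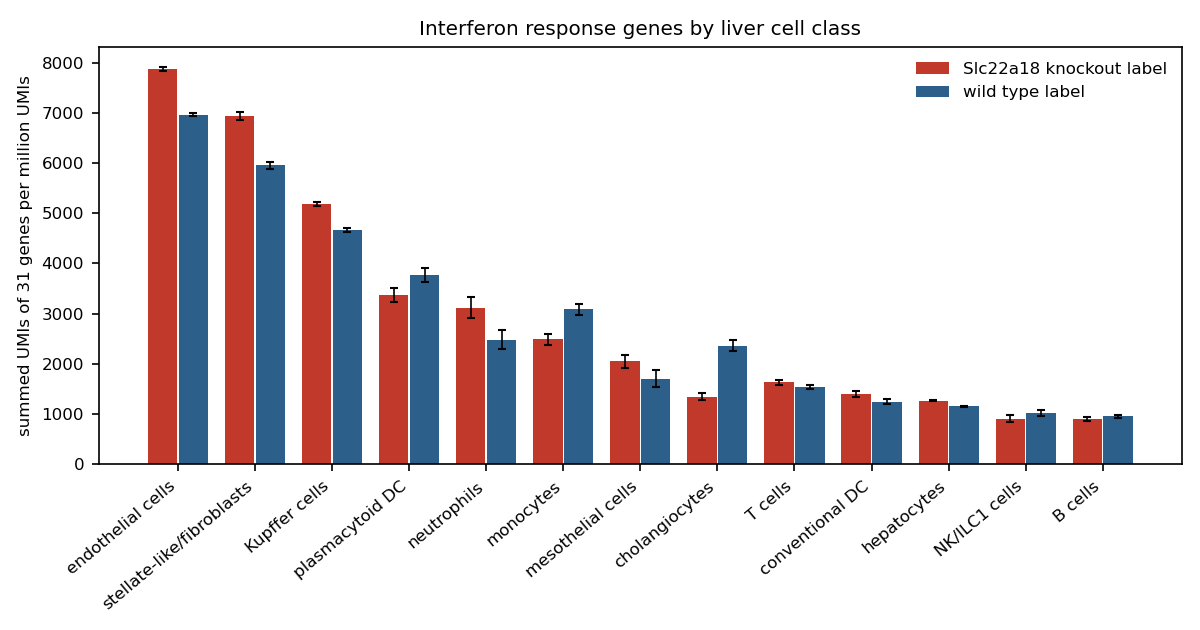
Summed UMIs of the 31 interferon response genes per 1000000 UMIs (y axis) in 13 liver cell classes (x axis), KO library left and WT library right in each pair, with exact Poisson 95% intervals. Endothelial cells stand highest at 7881 (KO) and 6963 (WT) CPM, and B cells are at 900.2 (KO) and 954 (WT) CPM.

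Markers of other cell types were found within these classes. The 12 endothelial markers summed to 18514 (KO) and 18377 (WT) CPM in endothelial cells, to 8220 (KO) and 8497 (WT) CPM in stellate-like cells and fibroblasts, to 1298 (KO) and 1173 (WT) CPM in Kupffer cells and to 518 (KO) and 465 (WT) CPM in hepatocytes, with none at 0. Within the stellate-like class, cluster 16 had 9520 (KO) and 9770 (WT) CPM of endothelial markers and 7708 (KO) and 6512 (WT) CPM of interferon response genes, while cluster 28 had 1511 (KO) and 1029 (WT) CPM of endothelial markers and 2959 (KO) and 2694 (WT) CPM of interferon response genes. The part of endothelial RNA in the stellate-like level was not tested. Free RNA was not subtracted.

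The transcription factors of the response differed in where they stood. Irf1, an early factor induced by both interferon types, was highest among the compared classes in endothelial cells, at 639 (KO) and 637 (WT) CPM. Irf7, the factor that amplifies interferon production, was instead highest in Kupffer cells, at 445 (KO) and 473 (WT) CPM, against 76.4 (KO) and 69.7 (WT) CPM in endothelial cells. Stat2 was highest in hepatocytes, at 189 (KO) and 158 (WT) CPM, and reached 97.6 (KO) and 101 (WT) CPM in endothelial cells. Irf9, the DNA-binding partner of STAT2, kept between 30.4 and 78.8 CPM across the 9 compared classes and both libraries, with hepatocytes at 44.6 (KO) and 35.5 (WT) CPM.

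Of the nucleic acid sensors, Ifih1 (MDA5, a sensor of double-stranded RNA) followed the endothelial pattern, with 460 (KO) and 378 (WT) CPM there and 8.48 (KO) and 13 (WT) CPM in B cells. Zbp1, a sensor of Z-form nucleic acids that can start cell death, did not. Its highest level in a compared class was 80.7 CPM in Kupffer cells of the KO library and 79.2 CPM in monocytes of the WT library, while endothelial cells had 6.02 (KO) and 5.95 (WT) CPM. T cells had 71.4 (KO) and 57.1 (WT) CPM of Zbp1.

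The IFIT proteins bind viral RNA and block its translation, and their genes lie together on chromosome 19. Ifit1 and Ifit2 were highest in endothelial cells, Ifit1 with 282 (KO) and 214 (WT) CPM and Ifit2 with 418 (KO) and 323 (WT) CPM. Ifit3 was highest in stellate-like cells and fibroblasts, with 340 (KO) and 218 (WT) CPM, above 222 (KO) and 188 (WT) CPM in endothelial cells. Ifit3b had the same order of these classes, with 75.6 (KO) and 63.4 (WT) CPM in the stellate-like class. In B cells Ifit1 had 2 UMIs in the KO library and 11 UMIs in the WT library.

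Effectors of the OAS, MX and viperin families were split between endothelium and myeloid cells. Rsad2, which encodes the antiviral enzyme viperin, had 343 (KO) and 241 (WT) CPM in endothelial cells and 283 (KO) and 208 (WT) CPM in Kupffer cells. Oasl2 and Oas1a, of the family that includes the 2-5A synthetases, were highest in endothelial cells among the compared classes, Oasl2 with 239 (KO) and 205 (WT) CPM and Oas1a with 48.0 (KO) and 44.8 (WT) CPM. Oas2 was highest in Kupffer cells, with 73.5 (KO) and 72.9 (WT) CPM, against 3.28 (KO) and 3.30 (WT) CPM in endothelial cells. The dynamin-like GTPase genes Mx1 and Mx2 were highest in different classes. Mx1 was highest in conventional dendritic cells, with 66.8 (KO) and 84.8 (WT) CPM, and near its lowest in endothelial cells, with 3.42 (KO) and 1.90 (WT) CPM. Mx2 had 169 (KO) and 143 (WT) CPM in endothelial cells and 16.8 (KO) and 7.07 (WT) CPM in conventional dendritic cells. The annotation used here lists Mx2 as a polymorphic pseudogene.

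Isg15 encodes a ubiquitin-like protein that is attached to other proteins, and Usp18 the protease that removes it and dampens receptor signalling. Isg15 had 317 (KO) and 275 (WT) CPM in endothelial cells and 333 (KO) and 266 (WT) CPM in stellate-like cells and fibroblasts. Neutrophils, with 76 (KO) and 96 (WT) cells, had 237 (KO) and 297 (WT) CPM of Isg15. Usp18 was highest in endothelial cells, with 87.4 CPM in both libraries, and B cells had 6.79 (KO) and 9.67 (WT) CPM.

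Genes of interferon-inducible GTPases, which attack the vacuoles of intracellular microbes, included the member with the most UMIs. Iigp1 held 62309 (KO) and 55460 (WT) UMIs over all kept cells, a count not corrected for transcript length. It had 1617 (KO) and 1359 (WT) CPM in endothelial cells, 1498 (KO) and 1193 (WT) CPM in stellate-like cells and fibroblasts, 296 (KO) and 269 (WT) CPM in hepatocytes and 29.7 (KO) and 18.4 (WT) CPM in B cells. It made up 20.5% (KO) and 19.5% (WT) of the members' UMIs in endothelial cells. Irgm1 had 177 (KO) and 159 (WT) CPM in endothelial cells and Gbp2 had 84.4 (KO) and 72.4 (WT) CPM there. Gbp3 had 96.4 (KO) and 88.2 (WT) CPM in endothelial cells and 101 (KO) and 87.5 (WT) CPM in the stellate-like class. For Igtp and Ifi47, T cells and NK/ILC1 cells were among the highest classes. Ifi47 had 63.5 (KO) and 62.7 (WT) CPM in T cells and 54.6 (KO) and 63.9 (WT) CPM in NK/ILC1 cells. In the KO library Igtp was highest in the stellate-like class, at 40.7 CPM, and lowest in B cells, at 4.24 CPM. Igtp had 34.3 (KO) and 46.4 (WT) CPM in T cells and 38.8 (KO) and 50.6 (WT) CPM in NK/ILC1 cells. Several of these GTPases have near-identical relatives, so counts of single family members are uncertain.

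The remaining 7 members differed in the class where they stood highest. Bst2 (tetherin, which holds budding virions on the cell) was highest in plasmacytoid dendritic cells, for which it is a known marker in mouse, at 1594 (KO) and 2045 (WT) CPM in 81 (KO) and 100 (WT) cells. It made up 47.3% (KO) and 54.4% (WT) of the members' UMIs in that class, and endothelial cells followed with 762 (KO) and 768 (WT) CPM. Ifi27l2a was highest in Kupffer cells, at 1384 (KO) and 1117 (WT) CPM, and made up 26.7% (KO) and 24.0% (WT) of their members' UMIs, against 42.2 (KO) and 31.4 (WT) CPM in endothelial cells. Ifi204, a DNA-binding protein of the PYHIN family, had 399 (KO) and 388 (WT) CPM in Kupffer cells and 340 (KO) and 327 (WT) CPM in endothelial cells. Ifi44 had 274 (KO) and 239 (WT) CPM in endothelial cells and 29.8 (KO) and 25.2 (WT) CPM in Kupffer cells. Parp14, an ADP-ribosyltransferase, had 540 (KO) and 488 (WT) CPM in endothelial cells, and Rtp4 had 231 (KO) and 217 (WT) CPM there. Xaf1, a proapoptotic factor, had 68.2 (KO) and 71.2 (WT) CPM in endothelial cells, 75.8 (KO) and 67.4 (WT) CPM in the stellate-like class and 15.8 (KO) and 15.5 (WT) CPM in hepatocytes.

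Across the 9 compared classes, endothelial cells were highest for 17 members in the KO library and 20 in the WT library, with 17 the same in both. Kupffer cells were highest for 5 (KO) and 4 (WT) members, of which Irf7, Ifi27l2a, Ifi204 and Oas2 were shared. Stellate-like cells and fibroblasts were highest for 6 (KO) and 2 (WT) members, of which Ifit3 and Ifit3b were shared. The UMI counts behind neighbouring ranks often did not separate them: Mx2 in the KO library had 169 CPM in both endothelial and stellate-like cells.

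**Figure D2:**
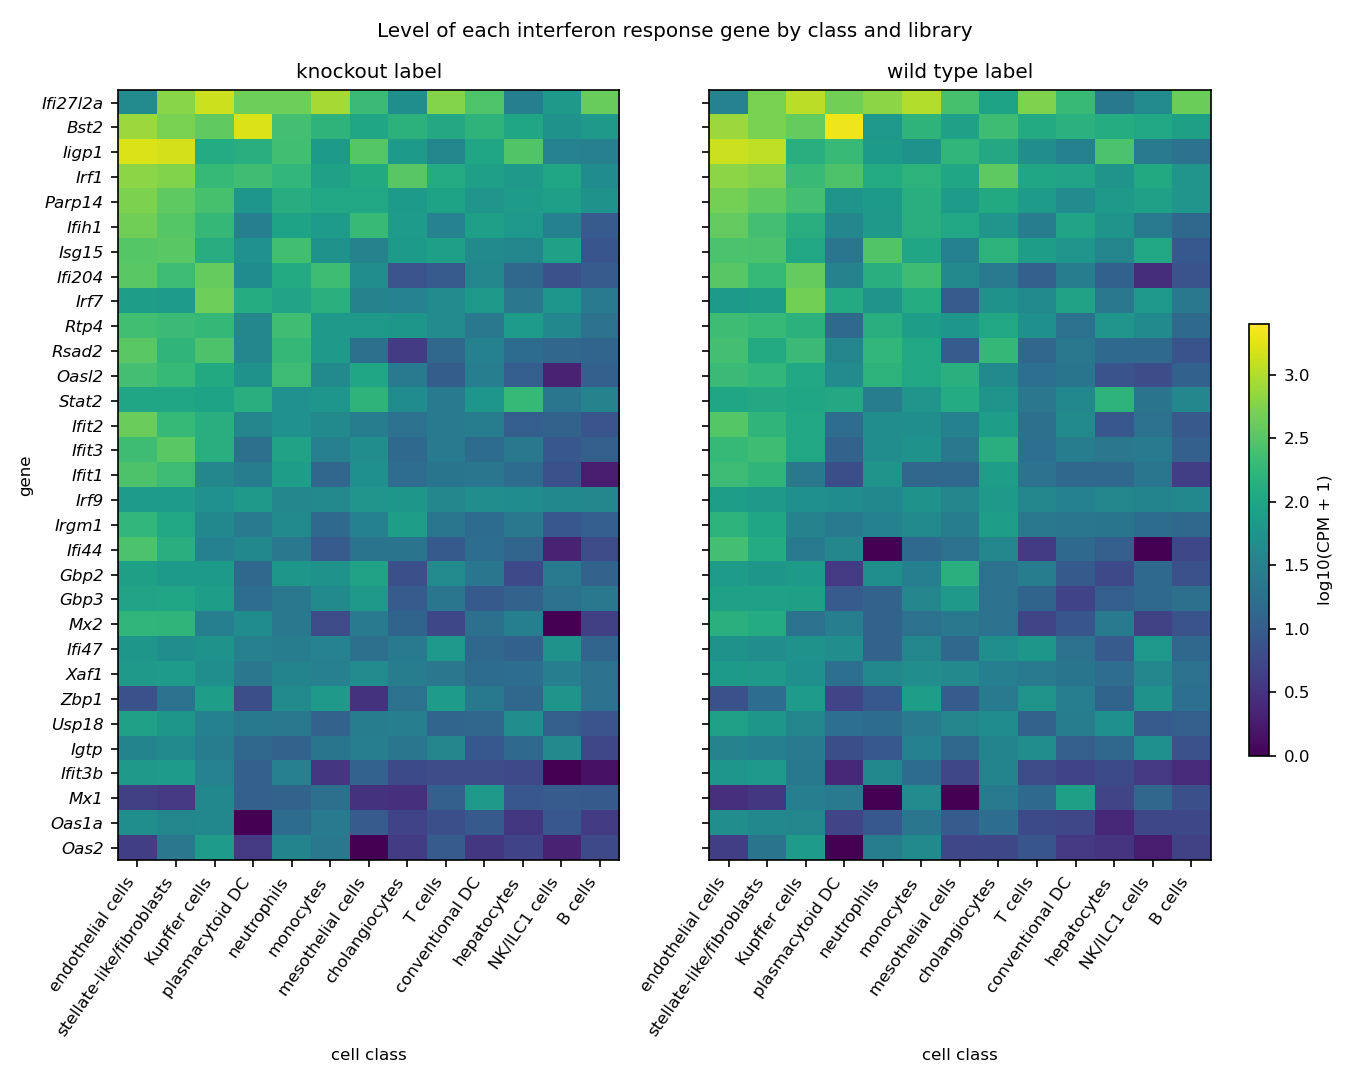
Level of each gene (rows) in 13 cell classes (columns) as log10 of CPM + 1, KO library left and WT library right. Most genes are brightest in the first 3 columns, whereas Bst2 is brightest in plasmacytoid dendritic cells (1594 (KO) and 2045 (WT) CPM) and Mx1 in conventional dendritic cells (66.8 (KO) and 84.8 (WT) CPM).

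Detection in single cells was compared after each cell of a class was thinned to 1 number of UMIs, set for that class, so shares compare libraries and not classes. At 6514 UMIs per cell, all 1711 endothelial cells of the KO library (100%) and 1887 of 1888 of the WT library (99.9%) held UMIs of at least 3 different members. The unthinned shares were 99.4% (KO) and 98.8% (WT). The median endothelial cell held 16 (KO) and 15 (WT) of the 31 members. In Kupffer cells at 1291 UMIs the shares were 82.9% in KO (80.6 to 85.0) and 79.4% in WT (76.8 to 81.9), and in hepatocytes at 2580 UMIs they were 42.5% in KO (40.7 to 44.4) and 38.8% in WT (36.9 to 40.7). Unthinned, they were 87.9% (KO) and 87.2% (WT) in Kupffer cells and 72.7% (KO) and 67.6% (WT) in hepatocytes. Intervals are exact binomial and cover counting error only. The 5% of thinned endothelial cells with the most member UMIs held 11.0% (KO) and 11.1% (WT) of them. In conventional dendritic cells, thinned to 9016 UMIs, the top 5% held 23.7% (KO) and 30.8% (WT). The median thinned cell held 48 (KO) and 42 (WT) member UMIs in endothelial cells. In conventional dendritic cells it held 9 (KO) and 6 (WT). The shares of the top 5% are therefore not compared between these classes.

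No class here is known to lack these genes, and B cells, with medians of 3167.5 (KO) and 3346 (WT) UMIs, had the lowest unthinned share of cells with 3 or more members, 27.3% (KO) and 29.2% (WT). Ifit1 was detected in 0.275% (KO) and 1.02% (WT) of B cells, against 62.0% (KO) and 57.2% (WT) of endothelial cells, whose medians were 8738 (KO) and 8992.5 (WT) UMIs. Isg15 was detected in 2.34% (KO) and 2.44% (WT) of B cells and in 73.3% (KO) and 71.1% (WT) of endothelial cells. After thinning, to 6514 UMIs for endothelial cells and 1218 for B cells, Isg15 was detected in 70.7% (KO) and 67.6% (WT) of endothelial cells and in 0.856% (KO) and 1.15% (WT) of B cells, values that are not compared between these classes because the depths differ. The B cell shares may hold free RNA.

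Members were detected more often in endothelial cells that also held Ifit1. Among the thinned endothelial cells, 1028 held an Ifit1 UMI and 683 did not in the KO library, and 1023 and 865 in the WT library. Isg15 was detected in 79.2% of the cells with Ifit1 and 58.0% of those without in the KO library, and in 78.0% and 55.4% in the WT library. For Ifit3 the shares were 71.0% and 46.0% in the KO library and 70.3% and 40.1% in the WT library. Of the other 30 members, 28 in each library were detected more often in the cells with Ifit1, with a median gap of 10.5 (KO) and 9.52 (WT) percentage points. The same share over all genes was not calculated, so whether the gap is particular to these genes is not known. The class also pools clusters whose summed levels differ, as given later. Bst2 was one exception in both libraries, found in 97.9% against 98.1% of cells in the KO library and in 97.3% against 98.0% in the WT library. In hepatocytes only 62 (KO) and 35 (WT) thinned cells held an Ifit1 UMI. Isg15 was then detected in 27.4% of them against 4.09% of the other hepatocytes in the KO library, and in 20% against 4.93% in the WT library. Of the other 30 members, 30 (KO) and 26 (WT) were detected more often in hepatocytes with Ifit1. Stat2 was an exception in the WT library, at 25.7% against 32.5%.

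**Figure D3:**
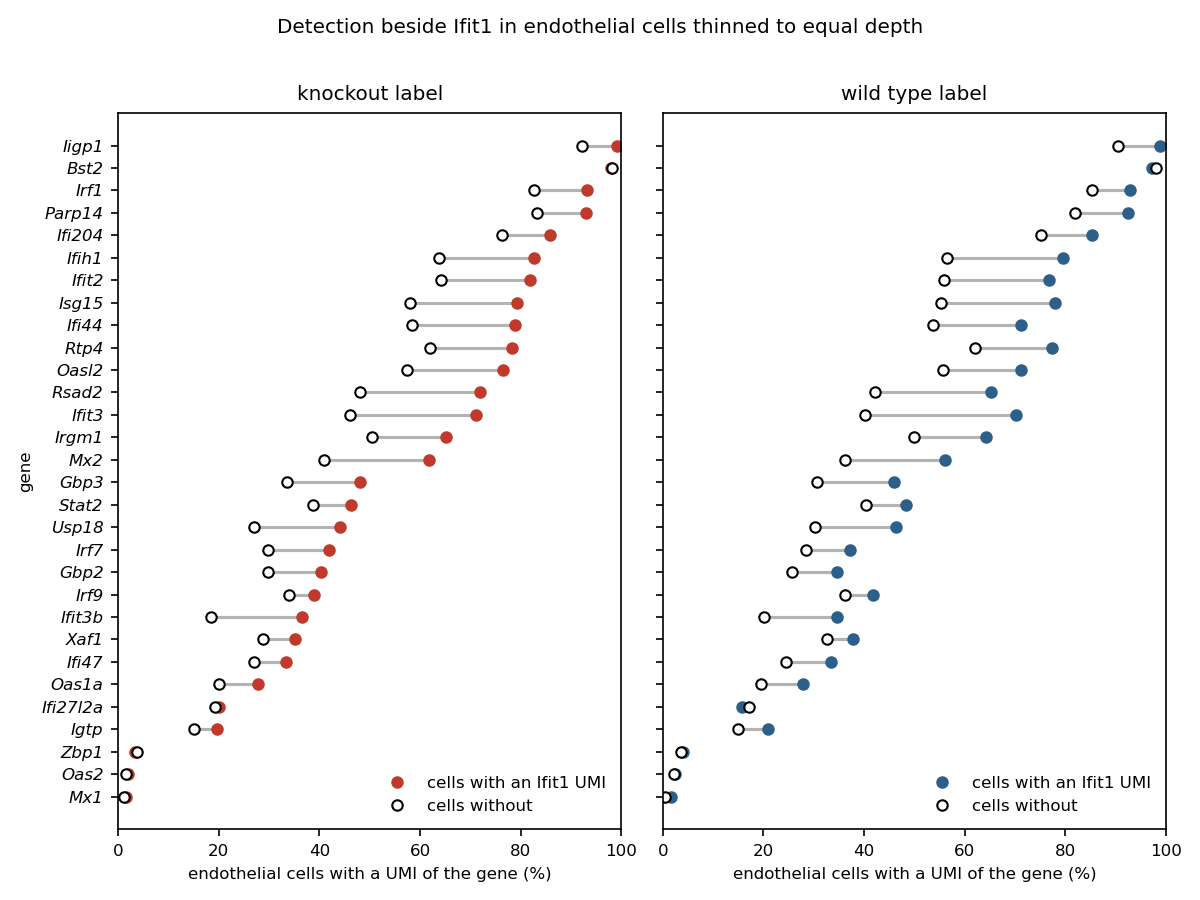
Share of endothelial cells, each thinned to 6514 UMIs, with a UMI of each gene (x axis, percent) among cells with an Ifit1 UMI (filled) and without (open), KO library left and WT library right. Filled points lie right of open ones for 28 of 30 genes in each library, while Bst2 is near 98% in both kinds of cell. The same share over all genes was not calculated.

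The comparison of the genotype labels asks whether the response genes stood at another level in the KO liver. Over all kept cells the summed level was 4010 CPM in the KO library and 3657 CPM in the WT library, a ratio of 1.10 with an interval of 1.09 to 1.10 that covers counting error only. Rsad2 had the highest single ratio, with 154 (KO) and 114 (WT) CPM, 1.34 (1.31 to 1.38). Ifi27l2a followed with 337 (KO) and 272 (WT) CPM, 1.24 (1.22 to 1.26), and Ifit1 with 97.2 (KO) and 79.5 (WT) CPM, 1.22 (1.19 to 1.26). Bst2, with 353 (KO) and 383 (WT) CPM, had the lowest ratio, 0.922 (0.909 to 0.936). Xaf1 had 39.5 (KO) and 41.7 (WT) CPM, 0.948, and Usp18 had 51.3 (KO) and 53.9 (WT) CPM, 0.951. Ratios were above 1 for 27 of 31 members, where 52.3% of all 18977 genes with at least 50 UMIs were above 1. The members' median log2 ratio was 0.13, against 0.01 for all genes. These values pool all classes, whose shares of the kept cells differed between the libraries. Kupffer cells made up 13.1% (KO) and 10.6% (WT) and hepatocytes 29.4% (KO) and 27.8% (WT). B cells made up 6.51% (KO) and 8.21% (WT) and stellate-like cells and fibroblasts 2.30% (KO) and 2.97% (WT). The part of these shares in the ratios over all kept cells was not tested.

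A gene was called by size when its ratio was 2-fold or more with a counting interval off 1, over 50 or more UMIs, and 5% or more of the cells of the higher library held it. Over all kept cells no member was called, and 0.148% of all genes were called higher and 0.058% lower. With 1 library per genotype this rule ranks sizes and tests nothing. Within the 9 compared classes, 230 of 279 pairs of member and class had enough UMIs, of which 2 were called higher and 3 lower. Of all 88826 pairs of gene and class with enough UMIs, 0.755% were called higher and 0.321% lower, and within single classes the shares differed widely, as given with each class.

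In endothelial cells, 25 of 31 ratios were above 1 (45.3% of all genes), and the summed ratio was 1.13 (1.12 to 1.14). Mx1 had 75 (KO) and 46 (WT) UMIs, a ratio of 1.80 (1.23 to 2.66). Rsad2 had a ratio of 1.43 (1.38 to 1.47), Ifi27l2a 1.34 (1.22 to 1.48), Ifit1 1.32 (1.27 to 1.37) and Ifit2 1.29 (1.26 to 1.33). Bst2, Irf1, Irf9, Stat2, Usp18, Oas2, Zbp1 and Xaf1 had intervals that included 1, as did Oas1a and Igtp. No member was called, where 0.0441% of genes were called higher and 0.0441% lower. Irf9 (0.951), Xaf1 (0.959) and Stat2 (0.967) had the lowest ratios. The members' median log2 ratio was 0.16, against -0.01 for all genes. The endothelial markers summed to 18514 (KO) and 18377 (WT) CPM here, a ratio of 1.01.

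In Kupffer cells, 21 of 31 ratios were above 1 (41.1% of all genes), with a summed ratio of 1.11 (1.10 to 1.13). Ifit1 had 35.9 (KO) and 22 (WT) CPM, 1.64 (1.4 to 1.91), Mx2 had 28.5 (KO) and 17.8 (WT) CPM, 1.60 (1.35 to 1.91), and Ifit3b had 31.3 (KO) and 22.5 (WT) CPM, 1.39 (1.19 to 1.64). Rsad2 had 283 (KO) and 208 (WT) CPM, 1.36 (1.29 to 1.43). Usp18 had 30.4 (KO) and 35.1 (WT) CPM, 0.867 (0.753 to 0.999), and Gbp3 and Iigp1 had ratios of 0.922 and 0.930. No member was called, where 0.105% of genes were called higher and 0.0972% lower. Endothelial markers in this class summed to 1298 (KO) and 1173 (WT) CPM, a ratio of 1.11, with 10 of 12 higher in the KO library, and their part in the members' ratio was not tested.

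In hepatocytes, 26 of 31 ratios were above 1, where 62.7% of all genes were, and the summed ratio was 1.10 (1.08 to 1.11). The members with the highest ratios were scarce. Oas1a had 74 (KO) and 38 (WT) UMIs, 1.88 (1.25 to 2.85), Mx1 had 216 (KO) and 117 (WT) UMIs, 1.78 (1.41 to 2.25), and Oas2 had 110 (KO) and 64 (WT) UMIs, 1.66 (1.21 to 2.29). Bst2 had 101 (KO) and 127 (WT) CPM, 0.794 (0.756 to 0.834), the lowest ratio of the class. Usp18 (0.936) and Ifit3b (0.971) followed, with intervals that included 1. No member was called, where 0.295% of genes were called higher and 0.114% lower. Kupffer cell markers in hepatocytes summed to 574 (KO) and 438 (WT) CPM, a ratio of 1.31 with 11 of 12 higher. Endothelial markers there summed to 518 (KO) and 465 (WT) CPM, 1.11 with 10 of 12 higher, and the hepatocyte markers themselves to 23908 (KO) and 30598.5 (WT) CPM, 0.781 with 3 of 12 higher. The part of these markers in the members' ratios was not tested.

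In stellate-like cells and fibroblasts, 24 of 30 ratios were above 1 (44.9% of all genes), and the summed ratio was 1.16 (1.15 to 1.18). Ifit3 had a ratio of 1.56 (1.44 to 1.69), Rsad2 1.42 (1.27 to 1.59) and Igtp 1.42 (1.13 to 1.78). Stat2 had 0.927 (0.813 to 1.06), Oas1a 0.948 and Irf7 0.951, each with an interval that included 1. No member was called, where 0.289% of genes were called higher and 0.368% lower. The members' median log2 ratio of 0.15 in this class turned to -0.17 with doublet calls kept and to -0.16 at a clustering resolution of 0.5.

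The lymphocyte classes differed from each other. In T cells, 18 of 27 ratios were above 1 (53.5% of all genes), with a summed ratio of 1.06 (1.02 to 1.10). Gbp3 had 20.6 (KO) and 11.5 (WT) CPM, 1.79 (1.18 to 2.73), Gbp2 had 42.2 (KO) and 26.3 (WT) CPM, 1.60 (1.22 to 2.12), and Ifit3 had 23.5 (KO) and 16.6 (WT) CPM, 1.42. Oasl2 had 9.20 (KO) and 16.6 (WT) CPM, 0.556 (0.342 to 0.885), Igtp 0.738 and Mx1 0.747. Ifi27l2a, Bst2 and Irf1 stood at 584 (KO) and 555 (WT), 111 (KO) and 117 (WT), and 122 (KO) and 101 (WT) CPM in T cells. Kupffer cell markers in T cells summed to 429 (KO) and 294 (WT) CPM, 1.46 with 12 of 12 higher in the KO library, and NK/ILC1 markers to 1526 (KO) and 974 (WT) CPM, 1.57 with 10 of 12 higher. T cell markers summed to 5706 (KO) and 6412 (WT) CPM, 0.890 with 2 of 12 higher, and the part of these markers was not tested. In B cells, 6 of 18 ratios were above 1 (49.3% of all genes), with a summed ratio of 0.943 (0.892 to 0.997). Iigp1 had 70 (KO) and 61 (WT) UMIs there, 1.61 (1.13 to 2.31), and Irf1 had 43.7 (KO) and 57.4 (WT) CPM, 0.761 (0.593 to 0.972). Rsad2 had a ratio of 1.79 and Gbp3 of 1.30, against 0.653 for Ifih1 and 0.702 for Irgm1. The intervals of these genes included 1, as did 16 of the 18 in B cells. Ifi27l2a, Bst2 and Parp14 stood at 406 (KO) and 435 (WT), 68.7 (KO) and 83.7 (WT), and 53.0 (KO) and 58.0 (WT) CPM in B cells. In NK/ILC1 cells, 5 of 14 ratios were above 1 (46.8% of all genes), with a summed ratio of 0.890 (0.810 to 0.976). Bst2 had 44 (KO) and 118 (WT) UMIs there, 0.510 (0.352 to 0.726), and Ifi27l2a had 57 (KO) and 48 (WT) UMIs, 1.62 (1.09 to 2.43). Ifih1 had 1.31 and Iigp1 1.27, and Xaf1 and Igtp each had 0.767. The intervals of these genes included 1, as did 12 of the 14 in NK/ILC1 cells. Irf1, Isg15 and Parp14 stood at 98.2 (KO) and 114 (WT), 88.5 (KO) and 104 (WT), and 81.2 (KO) and 87.0 (WT) CPM in NK/ILC1 cells. Neutrophil markers summed to 2915 (KO) and 25.7 (WT) CPM in this class, of which 1 KO cell held 99.4%, and its part in these ratios was not tested. No member was called in these classes at the main settings, and calls at other settings are given in the closing section. The shares of all genes called higher and lower were 1.79% and 0.345% in T cells, 0.0666% and 0.122% in B cells, and 0.273% and 0.8% in NK/ILC1 cells.

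**Figure D4:**
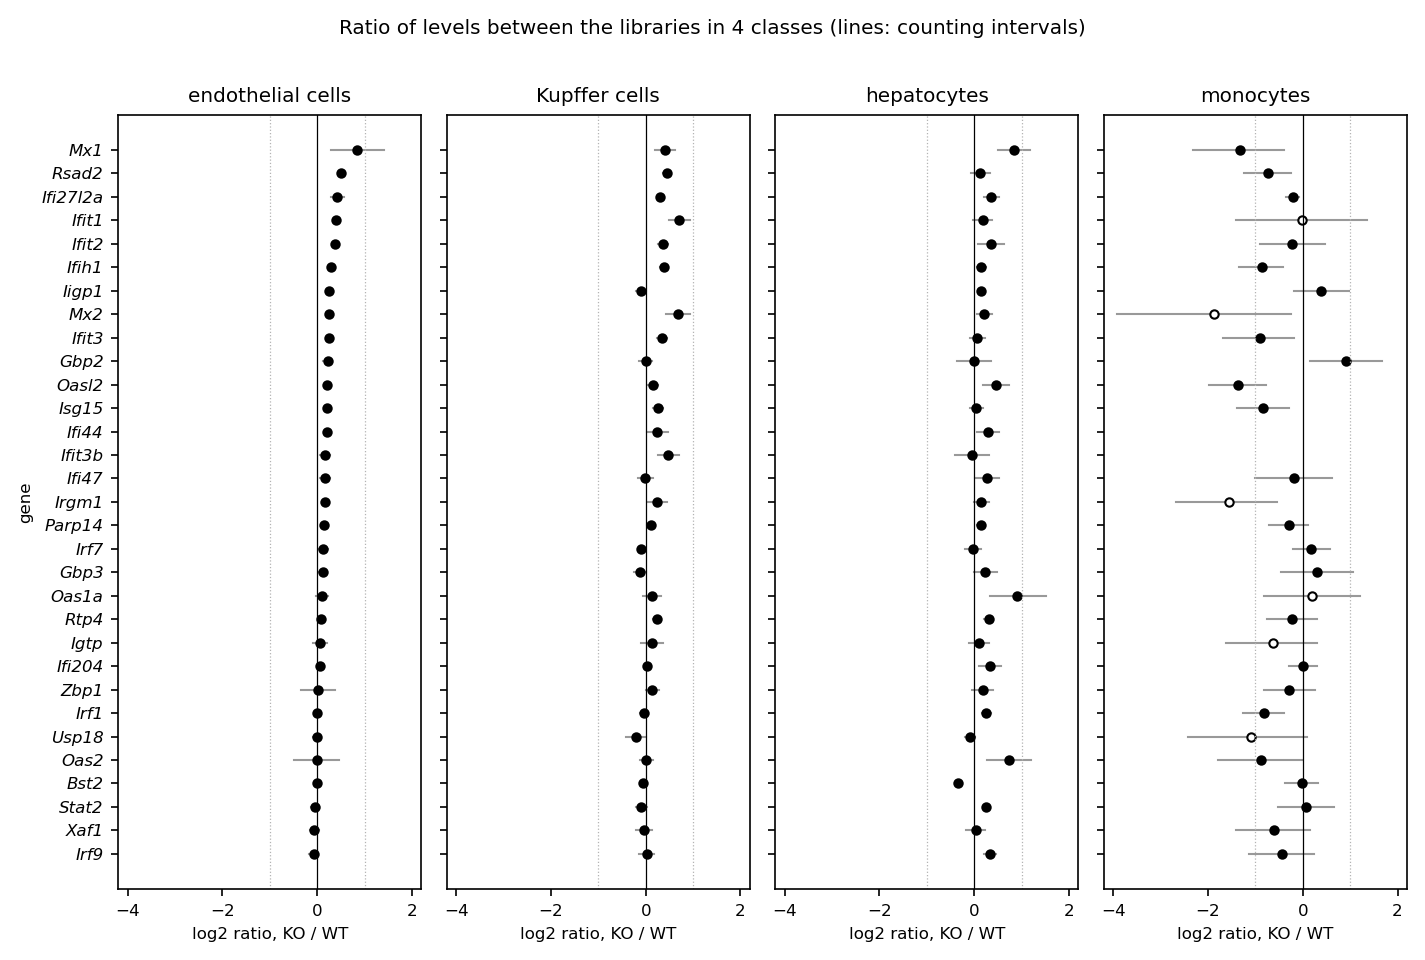
Log2 ratio of the level of each gene, KO over WT, in 4 classes, with counting intervals as lines (x axis) and genes ordered by their endothelial ratio (y axis). Filled points had at least 50 UMIs and open points 20 to 49, dotted lines mark 2-fold, and only Oasl2 and Mx1 in monocytes were called.

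Monocytes ran the other way. Of 23 members with enough UMIs, 6 had ratios above 1, where 48.1% of all genes did, and the summed level was 2491 CPM in 147 cells of the KO library and 3084 CPM in 171 cells of the WT library, a ratio of 0.808 (0.762 to 0.856). Oasl2 fell by this size rule, with 34 UMIs in 25 KO cells against 95 UMIs in 36 WT cells, a ratio of 0.389 (0.255 to 0.581). Mx1 fell too, with 14 UMIs in 11 KO cells against 38 UMIs in 22 WT cells, a ratio of 0.401 (0.200 to 0.756). Among all genes, 3.57% were called higher and 0.931% lower. Irf1 had 87.3 (KO) and 155 (WT) CPM, 0.563 (0.417 to 0.756), Isg15 had 55.3 (KO) and 98.4 (WT) CPM, 0.562 (0.383 to 0.815), and Ifih1 had 73.8 (KO) and 135 (WT) CPM, 0.548 (0.395 to 0.754). Ifit3 had 29.5 (KO) and 55.4 (WT) CPM, 0.532 (0.312 to 0.885). Gbp2 had 52.9 (KO) and 28.3 (WT) CPM, 1.87 (1.12 to 3.19), Iigp1 1.31 and Gbp3 1.23. The intervals of Iigp1 and Gbp3 included 1. Ifi27l2a, Ifi204 and Bst2 stood at 866 (KO) and 1006 (WT), 223 (KO) and 222 (WT), and 161 (KO) and 164 (WT) CPM in monocytes.

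The composition of the monocyte class also differed. Monocyte markers summed to 10660.5 CPM in the KO library and 14806 CPM in the WT library, and Kupffer cell markers to 4685 (KO) and 2983 (WT) CPM, with 11 of 12 higher in the KO library. Neutrophil markers summed to 284 (KO) and 7104 (WT) CPM, of which 1 cell held 89.1% in the WT library. The part of these differences in the members' ratios was not tested. One WT monocyte with 224 member UMIs held 8.22% of the class's member UMIs and also 27 UMIs of Ifnb1. Without the cell with the most member UMIs in each library, the summed ratio was 0.850 (0.80 to 0.902). Without each library's highest cell for the gene, the ratio of Mx1 was 0.399, on fewer than the 50 UMIs a call needs, and that of Oasl2 was 0.421. Neither gene was called with thinned cells, with 4 (KO) and 20 (WT) UMIs of Oasl2 and 4 (KO) and 10 (WT) of Mx1 left, nor with doublet calls kept, and Mx1 was not called with each cell weighted equally.

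Conventional dendritic cells were mixed, with 13 of 25 ratios above 1 (52.5% of all genes) and a summed ratio of 1.12 (1.06 to 1.19). Iigp1 rose by the size rule, with 191 UMIs in 33 of 129 cells of the KO library against 56 UMIs in 26 of 122 cells of the WT library, a ratio of 3.20 (2.36 to 4.39), and 3.65 without each library's highest cell. Gbp2 rose with 41 UMIs in 13 KO cells against 15 UMIs in 9 WT cells, 2.56 (1.39 to 4.99), and 2.42 without the highest cells, on fewer than the 50 UMIs a call needs. Usp18 fell, with 24 UMIs in 15 KO cells against 48 UMIs in 24 WT cells, 0.469 (0.275 to 0.781), and 0.409 without the highest cells. With thinned cells the ratio of Iigp1 was 2.49 (1.56 to 4.07) and it was still called, while Gbp2, with 22 (KO) and 7 (WT) UMIs left, and Usp18, with 10 (KO) and 14 (WT), had too few. Usp18 was also not called with doublet calls kept. Stat2 had 60.6 (KO) and 38 (WT) CPM, 1.59 (1.18 to 2.17), Ifit3 had 0.579 and Ifit2 0.609. Ifi27l2a, Bst2 and Ifih1 stood at 292 (KO) and 198 (WT), 163 (KO) and 147 (WT), and 82.1 (KO) and 96.2 (WT) CPM in these cells. Among all genes, 2.65% were called higher and 0.96% lower in this class. Endothelial markers summed to 1059 (KO) and 843 (WT) CPM in these cells, with 12 of 12 higher in the KO library, and Kupffer cell markers to 492 (KO) and 385 (WT) CPM, with 10 of 12 higher. The part of these markers in the Iigp1 ratio was not tested.

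Clusters within a class were compared as well. The 3 endothelial clusters had summed ratios of 1.28 (1.25 to 1.30) in cluster 14, 1.13 (1.12 to 1.14) in cluster 0 and 1.08 (1.06 to 1.09) in cluster 7. Cluster 14, whose leading genes included Mecom, Efnb1 and Ntn4, also had the highest levels, 10052 (KO) and 7883 (WT) CPM. Cluster 7, led by genes such as Wnt2 and Rspo3, had 7115 (KO) and 6615 (WT) CPM. The 5 hepatocyte clusters had ratios from 1.07 to 1.19, and the 3 Kupffer cell clusters from 1.05 to 1.19. The 2 T cell clusters had ratios of 0.985 (0.939 to 1.03) in cluster 18, with 209 (KO) and 208 (WT) cells, and 1.02 (0.956 to 1.09) in cluster 15, with 191 (KO) and 285 (WT) cells, so neither interval lay off 1 although that of the whole class did. Both B cell clusters were below 1, at 0.945 (0.891 to 1.0) and 0.941 (0.798 to 1.11).

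**Figure D5:**
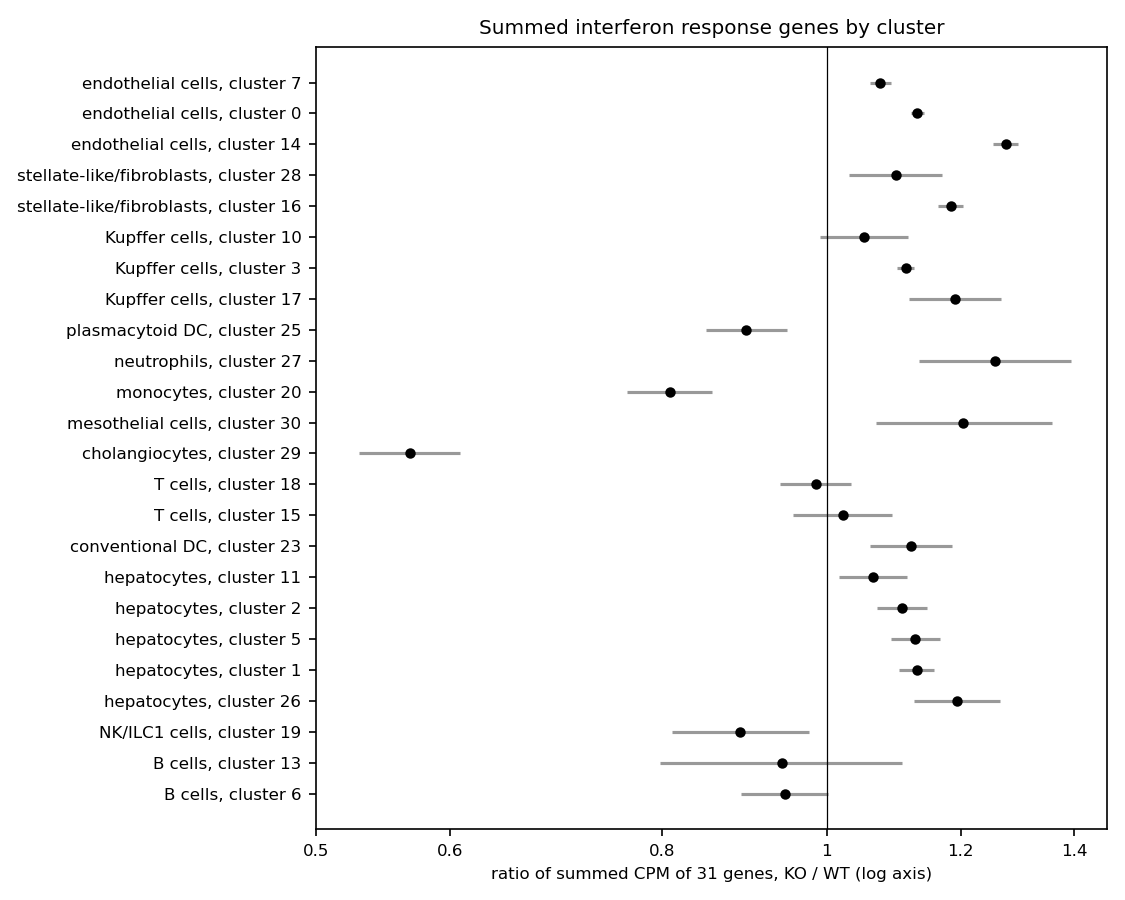
Ratio of the summed CPM of the 31 genes, KO over WT, in each named cluster (log x axis) with exact counting intervals, clusters grouped by class (y axis). All endothelial and hepatocyte clusters lie above 1, from 1.07 to 1.28, while monocytes are at 0.808 and cholangiocytes at 0.568.

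The 4 classes with under 100 cells in at least 1 library were described without a call. Plasmacytoid dendritic cells had a summed ratio of 0.897 (0.848 to 0.948), with Bst2 at 0.779 (0.721 to 0.843). Neutrophils had a summed ratio of 1.26 (1.13 to 1.39), with Bst2 at 65 (KO) and 17 (WT) UMIs and Iigp1 at 64 (KO) and 19 (WT) UMIs. In neutrophils 1 cell held 21.5% (KO) and 11.8% (WT) of the member UMIs. That KO cell had 23067 UMIs, where the median KO neutrophil had 2661. Without these cells the summed level was 2669 (KO) and 2215 (WT) CPM, in place of 3111 (KO) and 2474 (WT) CPM. Endothelial markers in neutrophils summed to 2115 (KO) and 984 (WT) CPM and Kupffer cell markers to 4255 (KO) and 1310 (WT) CPM, and their part was not tested. Mesothelial cells, 49 (KO) and 44 (WT) of them, had a summed ratio of 1.2 (1.07 to 1.36). Here 1 cell held 18.2% (KO) and 19.8% (WT) of the member UMIs, and the ratio without these cells was 1.26 (1.11 to 1.45).

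Cholangiocytes, 67 (KO) and 53 (WT) of them, had 1342 CPM in the KO library and 2363 CPM in the WT library, and 1 cell held much of the WT count. That WT cell held 661 member UMIs among 20182, or 31.6% of the class's member UMIs, with 28 of 31 members detected. It carried 144 of 160 Rsad2 UMIs and 113 of 124 Ifit3 UMIs of the class, against 3 Rsad2 UMIs and 14 Ifit3 UMIs in all cholangiocytes of the KO library. Without the cell with the most member UMIs in each library, the summed ratio was 0.799 (0.739 to 0.863) in place of 0.568 (0.530 to 0.608).

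Interferon RNA itself was found in few cells. Ifnb1, which encodes interferon-beta, had 117 UMIs in 17 cells of the KO library and 42 UMIs in 3 cells of the WT library. In the KO library 111 of these UMIs were in 11 Kupffer cells, and 3 Kupffer cells held 93 of them. In the WT library 27 were in 1 monocyte, 14 in 1 endothelial cell and 1 in a Kupffer cell. Both the monocyte and the endothelial cell were also the cells with the most member UMIs of their class, the endothelial cell with 881 member UMIs of which 295 were Rsad2. Ifna2 had 7 UMIs in the KO library, all in 1 Kupffer cell that also held 16 Ifnb1 UMIs. The ratio of Ifnb1 between libraries thus rests on a few cells.

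Interferon-gamma, encoded by Ifng, had 484 UMIs in 227 cells of the KO library and 618 UMIs in 273 cells of the WT library. T cells held 288 (KO) and 315 (WT) of the Ifng UMIs and NK/ILC1 cells 126 (KO) and 229 (WT). Over the 21 ligand genes, 3 had at least 50 UMIs in all kept cells, of which the other was Ifnk, with 140 (KO) and 97 (WT) UMIs.

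The other genes of the pathway were taken from lists chosen with earlier results of these data known. All 6 receptor genes had enough UMIs over all kept cells and none was called in any class, with Ifnar2 at 18265 (KO) and 18462 (WT) UMIs, a ratio of 0.986, and Ifngr1 at 12994 (KO) and 13255 (WT) UMIs, 0.977. Of 11 genes for kinases and transcription factors, none was called in any class, with Jak1 at 0.993 and Stat3 at 0.999. The median log2 ratio was -0.02 for the receptors and 0.02 for the kinases and factors. The 12 negative regulators had a median of 0.04 with 9 ratios above 1, and 12 of 14 sensors and adaptors with enough UMIs were above 1. The 70 other interferon targets had a median of 0.09 with 55 ratios above 1, and the 12 genes of antigen presentation by MHC class I a median of 0.02 with 7 above 1. For reference, 52.3% of all genes with at least 50 UMIs were above 1, and the median log2 ratio of all genes was 0.01.

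By the size rule, calls among these lists in compared classes were few. Of 486 pairs of other target and class, 2 were called higher and 7 lower, where 0.755% of all pairs of gene and class were called higher and 0.321% lower. Of these 9, 7 were in monocytes, where 3.57% of all genes were called higher and 0.931% lower. Cxcl9, a chemokine that attracts T cells, rose in Kupffer cells, where 0.105% of all genes were called higher, with 448 UMIs in 96 KO cells against 153 UMIs in 72 WT cells, 2.59 (2.15 to 3.13), and 2.38 without the highest cells. Cxcl9 in monocytes had 64 (KO) and 22 (WT) UMIs, and was called higher too, but 1 KO cell held 38 of the 64, and the ratio without the highest cells was 1.77. In monocytes, the class with the marker differences given before, the lower calls included Oasl1, with 17 (KO) and 51 (WT) UMIs, Herc6, with 25 (KO) and 57 (WT), Trim30d, with 28 (KO) and 63 (WT), and Parp11, with 15 (KO) and 35 (WT). Ifi205, with 25 (KO) and 55 (WT) UMIs, and Pml, with 16 (KO) and 35 (WT), were also called lower there. Cxcl10 was called lower in NK/ILC1 cells, where 0.8% of all genes were called lower, with 14 (KO) and 40 (WT) UMIs. However, 1 WT cell held 23 of the 40, and the ratio without the highest cells was 1.05. Of 87 pairs of sensor or adaptor and class, Cgas in T cells, with 36 (KO) and 18 (WT) UMIs, was called higher. In T cells, a class with marker differences given before, 1.79% of all genes were called higher. Dhx58 in monocytes, with 15 (KO) and 35 (WT) UMIs, was called lower. Of 103 pairs of negative regulator and class, Trim24 in monocytes was called higher, with 76 (KO) and 33 (WT) UMIs, but 1 KO cell held 42 of the 76, and the ratio without the highest cells was 1.32. No pair was called among 4 of ligands, 45 of receptors, 80 of kinases and factors and 108 of antigen presentation.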

How the data were processed

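Single cells of mouse liver were measured with the Chromium 3′ v3 kit, per the labels, in 1 SLC22A18-/- (KO) and 1 SLC22A18+/+ (WT) library. The authors deposited raw UMI counts per gene and barcode, without normalization. The file headers give Cell Ranger version 8.0.1, and STAR and mm10 are credited to the submitters' processing notes. The annotation used for counting is not given in the sources used here. The libraries held 103478998 UMIs in 11741 barcodes (SLC22A18-/-) and 105556354 UMIs in 12796 barcodes (SLC22A18+/+), each barcode with at least 500.

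Cells with at least 500 UMIs, at least 300 genes and at most 20% mitochondrial UMIs were kept. Scrublet in scanpy 1.11.5 (expected rate 8%), at each library's own threshold, removed 304 doublet calls from the SLC22A18-/- library (2.65%) and 429 from the SLC22A18+/+ library (3.45%). Both libraries were clustered together on 2000 variable genes, 30 components and 15 neighbours at resolution 1.0, without the interferon genes. Clusters were named from marker lists and stayed unnamed with under 3 markers in 10% of cells, a median doublet score of at least 0.15, a second class scoring at least 1.5 and 0.70 of the first, or more markers of another class among the 10 leading genes. The second-class rule was waived where those 10 held at least 3 own and 0 other markers, as for monocytes. Both this waiver and the choice of doublet threshold came after the data had been seen.

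UMIs were summed per class and library and scaled to 1000000. Ratios carry exact Clopper-Pearson 95% intervals, CPM exact Poisson intervals and shares exact binomial intervals, for counting error only. PCR and sampling of animals are not covered, and p-values were not calculated. Log2 ratios had 0.5 added to each sum, and list medians over genes used at least 20 UMIs. Named genes were those called by size, the 3 with the highest mean CPM in a class and up to 3 per direction with the largest ratios. Ratios given for other members complete the account by role and were chosen after their values were seen. For shares, cells were thinned to the 20th percentile of UMIs of the class. The members and gene lists were chosen with earlier results of these data known. Promoters came from RefSeq (GRCm38.p6), and gene positions from GENCODE on GRCm38, in which 1684 of the 33696 gene identifiers were absent. The steps were tested on simulated counts. Alternatives are listed in the closing section.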

Additional observations from a re-analysis of the deposited data

Results flagged for a closer look

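The summed level of the 31 genes stood above that of the SLC22A18+/+ library in the SLC22A18-/- library over all kept cells, at a ratio of 1.10, but below it in 3 compared classes. The ratio was 0.943 in B cells, 0.89 in NK/ILC1 cells and 0.808 in monocytes. These classes drew attention because their direction was opposite to that of all cells together. With 1 library per genotype the difference between classes was not tested.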

How the results depend on the processing

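Of 230 pairs of member and compared class, 2 were called higher and 3 lower, and these counts rest on small classes. At a clustering resolution of 0.5 they were 0 and 0, and with each library clustered alone 0 and 0, because conventional dendritic cells and monocytes were then not compared. Without a minimum of UMIs the lower count was 6, with at least 200 UMIs the counts were 1 and 0, with a fold limit of 1.5 they were 12 and 13, and with thinned cells the lower count was 1. The share of all pairs of gene and class called at these other settings is not given here. Whether the counts of members are many or few beside all genes is therefore not known. Of the 5 calls, thinning kept 1, Iigp1 in conventional dendritic cells, and the other 4 then had fewer than 50 UMIs. The calls new with thinning were Ifi27l2a in NK/ILC1 cells, higher, and Ifit2 in conventional dendritic cells, lower. Without the cell with the most UMIs of each gene, chosen after seeing the data, the higher count was 1. Keeping doublet calls gave 7 calls, of which 2 were among the 5. The rest were Ifit1, Ifit2, Ifit3 and Bst2 in NK/ILC1 cells, lower, and Gbp2 in monocytes, higher. The summed ratio of 1.10 was 1.12 with each cell weighted equally and 1.09 with at most 10% mitochondrial UMIs. The median log2 ratio of members turned sign in B cells with thinned cells (0.12), in NK/ILC1 cells with thinned cells (0.089), in T cells with clusters given the same weights (-0.00099), in conventional dendritic cells with each cell weighted equally (-0.076), and in stellate-like cells and fibroblasts with doublet calls kept (-0.17) and at resolution 0.5 (-0.16). Apart from the construction of the filters, the cause was not tested. No paired analysis was possible because each genotype had 1 library. Counting intervals leave out differences between animals, and scarce members in small classes (49 of 279 pairs) had too few UMIs to be compared.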

Other observations

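An unnamed cluster whose leading genes included the cell division genes Mki67, Top2a and Cenpf, with 104 cells in the SLC22A18-/- library and 182 in the SLC22A18+/+ library, had 4601 (KO) and 2601 (WT) CPM of the 31 genes, a ratio of 1.77 (1.71 to 1.83). Endothelial markers in this cluster summed to 8877 (KO) and 5127 (WT) CPM, a ratio of 1.73, with 12 of 12 higher in the SLC22A18-/- library, and hepatocyte markers to 7133 (KO) and 9799 (WT) CPM. The part of this composition in the members' ratio was not tested. Over all unnamed clusters the summed level was 3791 (KO) and 3093 (WT) CPM, a ratio of 1.23 (1.21 to 1.24).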
